A study of Mus musculus with 12 samples.

Results

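The 10 genes described here were Trem2, Tyrobp, Apoe, Spp1, Gpnmb, Lpl, Cst7, Clec7a, Axl and Ank, which belong to the Trem2 pathway or to the programme of disease-associated microglia. They were chosen by gene name, and all 10 were found among the 20776 genes of the deposited tables. RNA was sequenced from cells of the injured mouse cortex, taken 12 h after injury from a square of 3 mm around the wound and separated by immunopanning, in which cells stick to plates coated with antibody. The astrocyte fraction bound a plate against the surface antigen ACSA-2, and the immune fraction bound a plate with secondary antibody alone and a plate against the leukocyte antigen CD45. Each fraction came from Sema4B+/- mice, here the controls with 1 intact copy of the semaphorin gene Sema4b, and from Sema4B-/- mice (knockouts), with 3 libraries in each of the 4 groups. Every group was injured, so an effect of the injury itself was not measured. The labels name no strain, age or targeted part of Sema4b, and whether 2 libraries of the same group can share an animal is not stated; the tests therefore rest on library-to-library spread, which may be technical. Both fractions were panned from dissociated tissue of such squares, so an immune and an astrocyte library may share an animal, while the tests across fractions treat the 12 libraries as independent.

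Trem2 is a lipid-sensing receptor of myeloid cells that binds lipoproteins, among them those carrying the Apoe product, and signals through the adaptor encoded by Tyrobp to the kinase Syk. In mouse models of neurodegeneration, microglia around lesions turn on Apoe, Spp1, Gpnmb, Lpl, Cst7, Clec7a, Axl and Ank while genes of the resting state decline, and the later part of that change depends on Trem2. Several of these genes are not restricted to microglia: astrocytes are a main source of apolipoprotein E in the brain, and infiltrating or border macrophages can express Trem2, Apoe, Spp1, Gpnmb, Clec7a and Axl.

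On genome build GRCm38 the genes lie on 7 chromosomes. Tyrobp (ENSMUSG00000030579, chromosome 7, 30413760 to 30417585), Apoe (ENSMUSG00000002985, chromosome 7, 19696109 to 19699188) and Axl (ENSMUSG00000002602, chromosome 7, 25757273 to 25788705) share their chromosome with Sema4b and lie 49.8, 60.5 and 54.4 Mb before it. Trem2 (ENSMUSG00000023992) lies on chromosome 17 at 48346401 to 48354147, Spp1 (ENSMUSG00000029304) on chromosome 5 at 104435118 to 104441050, and Lpl (ENSMUSG00000015568) on chromosome 8 at 68880491 to 68907448. Cst7 (ENSMUSG00000068129) lies on chromosome 2 at 150570415 to 150578944 and Ank (ENSMUSG00000022265) on chromosome 15 at 27466677 to 27594909. Gpnmb (ENSMUSG00000029816, 49036546 to 49070929) and Clec7a (ENSMUSG00000079293, 129461591 to 129472779) are both on chromosome 6. The annotation classes 9 of the 10 as protein-coding and Clec7a as a polymorphic pseudogene. The transcript model Gm42793 shares 309 exon bases with Spp1 on the same strand, and over the 12 libraries it held 148 reads against 16423 for Spp1. Otulin overlaps the span of Ank on the other strand with no shared exon bases. Whether the counting used strand is not given in the sources used here.

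The 250 bases before the transcript start are shown for 4 genes, 2 with most of their RNA in the immune fraction (Trem2 and Clec7a) and 2 with most in the astrocyte fraction (Apoe and Ank). The sequences are from RefSeq on GRCm38.p6, read 5′ to 3′ on the strand of the gene. The windows are chr17:48346151-48346400 (plus strand) for Trem2, chr6:129472780-129473029 (minus strand) for Clec7a, chr7:19699189-19699438 (minus strand) for Apoe and chr15:27466427-27466676 (plus strand) for Ank. Capitals mark GAGGAA on either strand (TTCCTC where it lies on the other strand), the core letters bound by the myeloid factor PU.1, and TGANTCA, the letters bound by AP-1 factors.
Trem2: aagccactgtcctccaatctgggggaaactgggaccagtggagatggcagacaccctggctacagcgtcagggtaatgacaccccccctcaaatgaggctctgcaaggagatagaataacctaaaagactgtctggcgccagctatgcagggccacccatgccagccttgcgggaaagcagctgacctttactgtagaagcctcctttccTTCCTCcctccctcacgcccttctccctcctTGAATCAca
Clec7a: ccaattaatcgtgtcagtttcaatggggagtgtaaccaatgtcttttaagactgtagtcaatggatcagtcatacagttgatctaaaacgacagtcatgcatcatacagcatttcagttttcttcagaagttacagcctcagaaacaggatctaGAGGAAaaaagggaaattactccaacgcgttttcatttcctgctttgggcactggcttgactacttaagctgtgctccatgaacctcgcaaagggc
Apoe: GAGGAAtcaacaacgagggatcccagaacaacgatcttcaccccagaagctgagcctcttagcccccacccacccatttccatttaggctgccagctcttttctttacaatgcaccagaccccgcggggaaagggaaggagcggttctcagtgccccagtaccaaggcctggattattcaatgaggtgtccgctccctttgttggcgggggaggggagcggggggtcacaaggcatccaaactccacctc
Ank: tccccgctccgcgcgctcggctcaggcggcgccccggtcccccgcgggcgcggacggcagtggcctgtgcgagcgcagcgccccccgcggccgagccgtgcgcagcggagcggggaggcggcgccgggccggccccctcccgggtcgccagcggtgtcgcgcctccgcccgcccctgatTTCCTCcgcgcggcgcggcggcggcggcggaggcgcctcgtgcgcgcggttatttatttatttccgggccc
RefSeq promoters were matched for 8 of the 10 genes, not for Tyrobp and Lpl. GAGGAA on either strand occurred in 6 of these 8 windows, and in 23.134% of 27025 mouse promoter windows of 250 bases. Counting the base before the start as -1, its first base lay at -40 in Trem2, -96 in Clec7a, -113 in Spp1, -71 in Ank, -130 in Axl and -250 in Apoe, so it was found in genes of both fractions. TGANTCA was found in Trem2 alone, at -9, and in 6.868% of all windows. CANGTG, a narrower form of the E-box letters CANNTG, was found in Spp1 at -98 and in Cst7 at -241, and in 39.397% of all windows. Other forms of the E-box were not searched for. These matches describe the letters in the windows only. Both strands were searched for all 3 motifs, and no match overlapped another.

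Library totals ran from 11111965 to 15993564 reads. Levels are read counts scaled to a common library total by the TMM factors of all 12 libraries (TMM-scaled CPM); values after ± are the SD over n = 3 libraries for levels and the standard error for log2 differences. Libraries are named by the number in their deposited column head. The summed level of 10 astrocyte markers was 26744 to 41408 CPM in the astrocyte and 435 to 1334 CPM in the immune libraries, and that of 13 microglia markers 325 to 634 CPM and 5423 to 12774 CPM, with none of them at 0. The immune fraction also held markers of neutrophils (642 to 2833 CPM), border macrophages (184 to 465 CPM), monocytes (44.9 to 201 CPM) and neurons (2050 to 6135 CPM), and the astrocyte fraction those of oligodendrocytes (2242 to 5837 CPM) and vessels (917 to 1949 CPM). Neuron markers were present in the astrocyte fraction too, at 1428 to 2953 CPM, which overlaps the immune range. Sema4b lay at 6.06 to 8.83 CPM in heterozygous and 1.16 to 5.38 CPM in knockout immune libraries, and at 61.0 to 110.7 CPM and 27.7 to 58.3 CPM in the astrocyte libraries. Knockout libraries thus lay below all heterozygous ones of their fraction and still held Sema4b reads.

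Compared between the fractions of heterozygotes, the 10 genes fell into 2 camps. Trem2, Tyrobp, Clec7a, Lpl and Cst7 were 20.9-fold to 39.8-fold higher in the immune fraction, Spp1 was 2.71-fold higher, and Apoe, Axl, Ank and Gpnmb were higher in the astrocyte fraction, by 3.51-fold to 15.5-fold. All 10 passed the test, 6 higher and 4 lower in the immune fraction (edgeR quasi-likelihood test, Benjamini-Hochberg adjustment over 16880 genes, threshold 0.05). The background was high: 30.3% of all genes tested were called higher and 30% lower. The range of adjusted p over the 10 genes was 2.32e-08 to 0.00634.

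**Figure D1:**
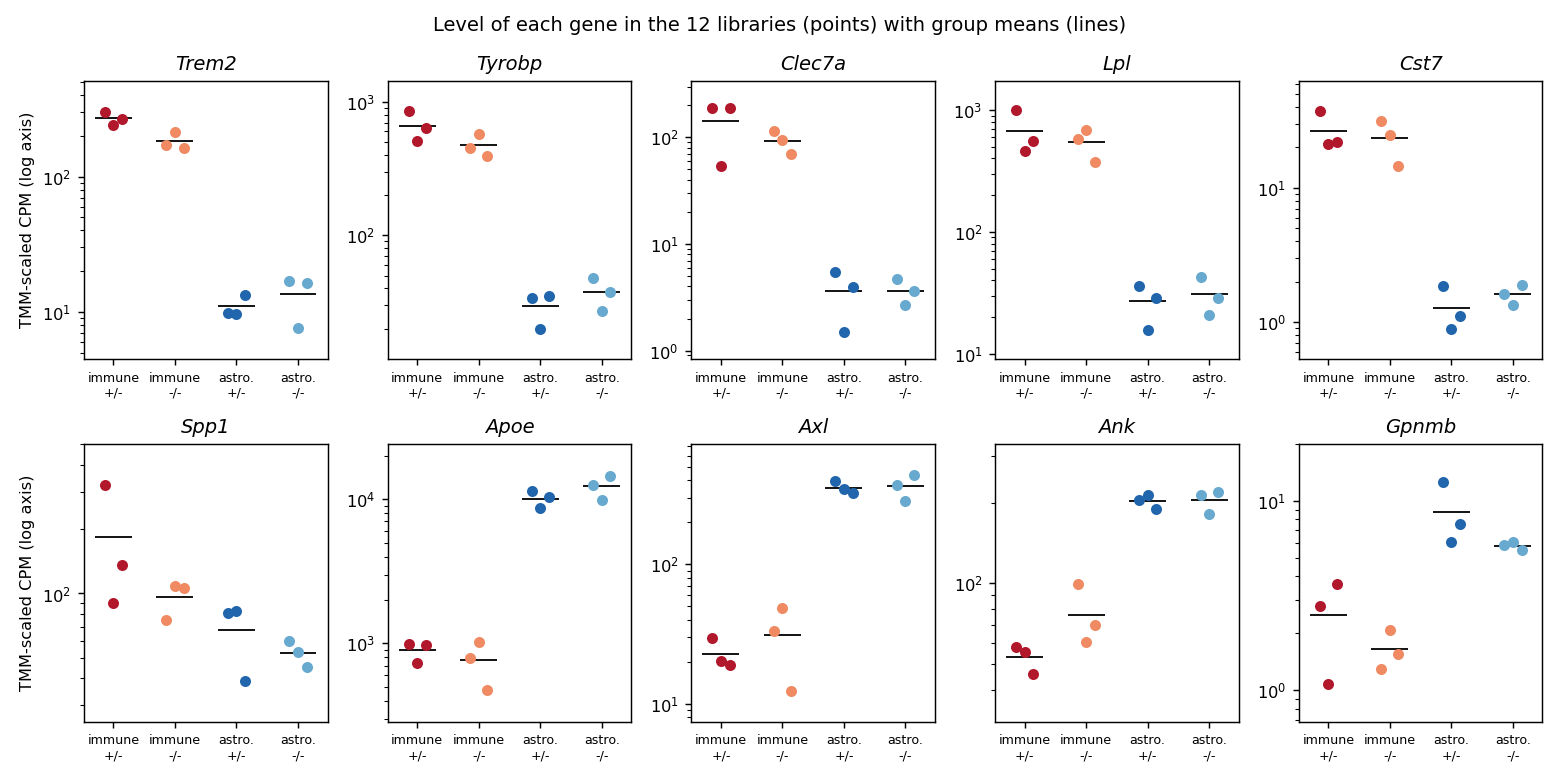
Level of each of the 10 genes (TMM-scaled CPM, log axis) in the 12 libraries, in columns for the immune and astrocyte fractions of Sema4B+/- and Sema4B-/- mice; points are libraries and lines are group means. Trem2, Tyrobp, Clec7a, Lpl and Cst7 lie higher in every immune library, Apoe, Axl, Ank and Gpnmb in every astrocyte library, and the 3 heterozygous immune libraries of Spp1 spread from 90.1 to 323 CPM.

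Trem2, the receptor, had 301, 238 and 265 CPM in heterozygous immune libraries 1, 3 and 5, and 9.85, 9.74 and 13.4 CPM in heterozygous astrocyte libraries 2, 4 and 6. In knockouts it had 172, 214 and 163 CPM in immune libraries 7, 9 and 11, and 16.9, 7.58 and 16.5 CPM in astrocyte libraries 8, 10 and 12. Every immune library thus lay above every astrocyte library, and the knockout immune libraries lay below the heterozygous ones. The log2 difference of immune over astrocyte fraction was 4.60 ± 0.29 in heterozygotes (edgeR adjusted p = 2.32e-08) and 3.74 ± 0.28 in knockouts (edgeR adjusted p = 1.09e-07). In bulk RNA, fewer cells of a type and less RNA per cell cannot be told apart, for this and all later differences.

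Tyrobp, the adaptor whose product carries the signal of Trem2 and of other myeloid receptors, followed the same order between the fractions, while its genotypes overlapped. Its levels were 848, 507 and 637 CPM in the heterozygous and 448, 575 and 391 CPM in the knockout immune libraries. The astrocyte libraries held 33.8, 20.01 and 35.3 CPM in heterozygotes and 47.8, 27.1 and 37.9 CPM in knockouts. The 2 fractions did not overlap, with log2 differences of 4.48 ± 0.31 (edgeR adjusted p = 5.30e-08) and 3.65 ± 0.30 (edgeR adjusted p = 2.79e-07). Per base of the principal transcript, Trem2 reads amounted to 14.5% to 25.2% of Tyrobp reads over the 12 libraries. Both ends of that range came from astrocyte libraries, with 114 and 131 Trem2 reads, and the immune libraries lay between them at 18.4% to 24.4%.

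Clec7a encodes Dectin-1, a C-type lectin receptor that signals through Syk and the adaptor Card9. It had 189, 53.6 and 189 CPM in heterozygous immune libraries 1, 3 and 5 and 115, 95.2 and 69.5 CPM in the knockout ones. In the astrocyte fraction it stood at 1.49 to 5.45 CPM, from 20 to 68 reads a library. Heterozygous immune library 3 was therefore below all knockout libraries, while the fractions stayed apart, at a log2 difference of 5.32 ± 0.52 in heterozygotes and 4.67 ± 0.51 in knockouts. Both differences passed (edgeR adjusted p = 1.22e-06 and 3.93e-06).

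Lpl, the enzyme that frees fatty acids from lipoprotein triglycerides, ran from 459 to 1002 CPM in heterozygous and from 373 to 682 CPM in knockout immune libraries, against 15.6 to 42.7 CPM over the astrocyte libraries. Cst7, which encodes the lysosomal protease inhibitor cystatin F, ran from 21.1 to 37.1 CPM and from 14.6 to 31.4 CPM in the immune libraries. Astrocyte libraries held 0.892 to 1.89 CPM of Cst7, or 12 to 26 reads each. For both genes the fractions were apart and the genotypes overlapped. Their log2 differences in heterozygotes were 4.65 ± 0.43 for Lpl (edgeR adjusted p = 5.88e-07) and 4.39 ± 0.37 for Cst7 (edgeR adjusted p = 2.82e-07), and in knockouts 4.15 ± 0.41 and 3.86 ± 0.36 (edgeR adjusted p = 1.69e-06 and 8.08e-07).

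Apoe, the lipid carrier, was the most abundant of the 10 in the astrocyte fraction. Heterozygous astrocyte libraries 2, 4 and 6 held 11354, 8633 and 10269 CPM and knockout libraries 8, 10 and 12 held 12513, 9908 and 14546 CPM. The immune fraction held 996, 734 and 973 CPM in heterozygotes and 788, 1027 and 477 CPM in knockouts. Every astrocyte library was higher than every immune one. The log2 difference, immune over astrocyte, was -3.48 ± 0.31 in heterozygotes (edgeR adjusted p = 4.48e-07) and -4.01 ± 0.32 in knockouts (edgeR adjusted p = 1.94e-07).

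Axl, a receptor kinase that recognises dying cells through the bridging protein Gas6, had 394, 343 and 326 CPM in heterozygous and 367, 285 and 437 CPM in knockout astrocyte libraries. Its immune levels were 29.5, 20.4 and 18.8 CPM and 33.2, 48.2 and 12.4 CPM, so the knockout immune libraries held both the highest and the lowest value. Ank, which encodes a transporter that exports pyrophosphate, had 189 to 214 CPM in heterozygous and 182 to 219 CPM in knockout astrocyte libraries. For both genes the fractions did not overlap. The log2 difference in heterozygotes was -3.95 ± 0.40 for Axl (edgeR adjusted p = 1.44e-06) and -1.93 ± 0.19 for Ank (edgeR adjusted p = 1.01e-06), and in knockouts -3.54 ± 0.39 and -1.43 ± 0.18 (edgeR adjusted p = 4.02e-06 and 1.80e-05).

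Gpnmb, a transmembrane glycoprotein gene of phagocytes, was low in the immune fraction. It had 2.78, 1.08 and 3.66 CPM in heterozygous and 1.30, 2.07 and 1.57 CPM in knockout immune libraries, which came from 15 to 43 reads each. The astrocyte libraries held 12.7, 6.10 and 7.51 CPM in heterozygotes and 5.88, 6.05 and 5.52 CPM in knockouts. All astrocyte libraries were above all immune ones, with a log2 difference of -1.81 ± 0.38 in heterozygotes (edgeR adjusted p = 0.000999) and -1.82 ± 0.39 in knockouts (edgeR adjusted p = 0.00126).

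Spp1, which encodes the secreted phosphoprotein osteopontin, stood between the 2 camps. It had 323, 90.1 and 135 CPM in heterozygous immune libraries 1, 3 and 5 and 75.5, 108 and 106 CPM in knockout libraries 7, 9 and 11. The astrocyte libraries held 80.8, 82.6 and 39.0 CPM in heterozygotes and 59.9, 53.4 and 45.0 CPM in knockouts. Within each genotype every immune library was above every astrocyte library, though heterozygous immune library 3 exceeded the highest astrocyte library only narrowly. The log2 difference was 1.44 ± 0.40 in heterozygotes (edgeR adjusted p = 0.00634), and without immune library 1 it was 0.74 and no longer passed (edgeR adjusted p = 0.0511). In knockouts it was 0.87 ± 0.39 and did not pass (edgeR adjusted p = 0.0704).

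Across the knockouts as a whole, 5 of the 10 genes passed as higher and 4 as lower in the immune fraction, against a background of 30.7% and 29% of the 16880 genes. Spp1 was the 1 gene that did not pass. It passed by limma-voom (adjusted p = 0.0395) and in a fit of the 6 knockout libraries alone (edgeR adjusted p = 0.00535). Libraries of the fractions did not overlap for any of the 10 genes in either genotype, against 34.2% of all genes higher and 33.6% lower without overlap in heterozygotes, and 31.9% and 31.8% in knockouts.

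**Figure D2:**
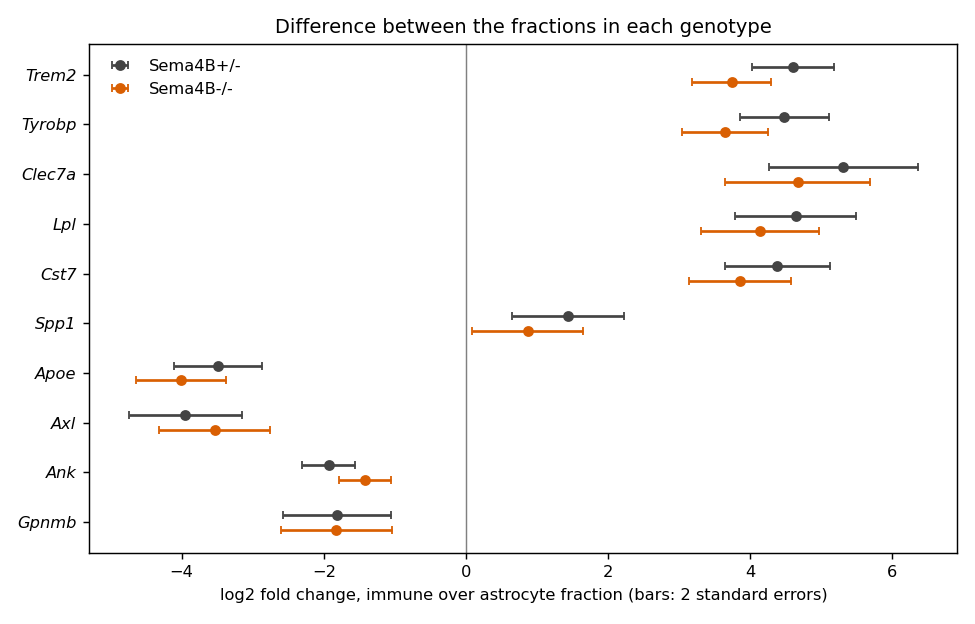
Log2 fold change of immune over astrocyte fraction (horizontal axis) for each gene in Sema4B+/- and Sema4B-/- libraries; points are edgeR estimates and bars extend 2 standard errors to each side. Trem2, Tyrobp, Clec7a, Lpl and Cst7 lie at 3.65 and above in both genotypes, Apoe and Axl at -3.48 and below, and the Spp1 values are 1.44 and 0.87.

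Set beside the marker lists, the immune-high genes lay in the range of microglia markers and the astrocyte-high genes did not reach that of astrocyte markers. The 13 microglia markers had log2 differences of 1.02 to 5.38 in heterozygotes (median 4.65), all passing as higher, which spans Trem2, Tyrobp, Lpl, Cst7 and Clec7a. That range was not particular to microglia, since the 9 border macrophage markers, at 4.10 to 8.31, spanned the same genes. Clec7a also lay in the ranges of monocyte (5.17 to 7.06) and neutrophil markers (5.23 to 6.87). The 10 astrocyte markers had differences of -5.88 to -5.11, further from 0 than Axl, Apoe, Ank or Gpnmb. Markers of oligodendrocytes (6 of 6 passing as lower, -3.37 to -2.39), of vessels (8 of 9, -6.61 to -0.86) and of fibroblasts (4 of 4, -5.30 to -4.23) were lower in the immune fraction too. Which cell type gave the reads of Apoe, Axl, Ank and Gpnmb in either fraction was not tested.

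The mean astrocyte level of a gene was also set as a percentage of its mean immune level. In heterozygotes this was 4.11% for Trem2, 4.47% for Tyrobp, 4.00% for Lpl, 4.79% for Cst7 and 2.51% for Clec7a, beside a median of 3.95% over the 13 microglia markers. In knockouts the median of the microglia markers was 6.42%. Border macrophage markers had a median of 0.977%, monocyte markers of 1.99% and neutrophil markers of 1.46% in heterozygotes, medians below the values of the 5 genes. Single markers of these 3 lists reached 5.21%, 2.78% and 2.57%, each above Clec7a, so the lists and the 5 genes overlapped. Sall1, the microglia marker with the highest percentage, averaged 93.5 CPM in heterozygous astrocyte and 189 CPM in heterozygous immune libraries.

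Within each library the level of a gene was also taken relative to the mean log2 level of its microglia markers. Trem2 lay at -0.67 to -0.32 in heterozygous immune and at -0.79 to -0.33 in heterozygous astrocyte libraries, so the fractions overlapped. Tyrobp (0.59 to 1.04 and 0.60 to 0.93), Lpl, Cst7 and Clec7a overlapped as well in heterozygotes. In knockouts Lpl and Clec7a lay lower in all astrocyte than in all immune libraries, by 0.34 and 0.65 between medians. The Lpl libraries were only just apart, at up to 0.990 in the astrocyte and from 0.993 in the immune fraction. The marker mean includes Sall1, whose astrocyte level was 95.5% of its immune level in knockouts. Its part in these offsets was not tested. Spp1, Gpnmb, Ank, Axl and Apoe lay higher in every astrocyte library on this scale in both genotypes. For Spp1 the medians were -1.63 in the immune and 2.18 in the astrocyte fraction of heterozygotes, the reverse of its order in CPM. For Apoe they were 1.27 and 9.30, for Axl -3.84 and 4.46, for Ank -2.82 and 3.52, and for Gpnmb -6.97 and -0.97.

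**Figure D3:**
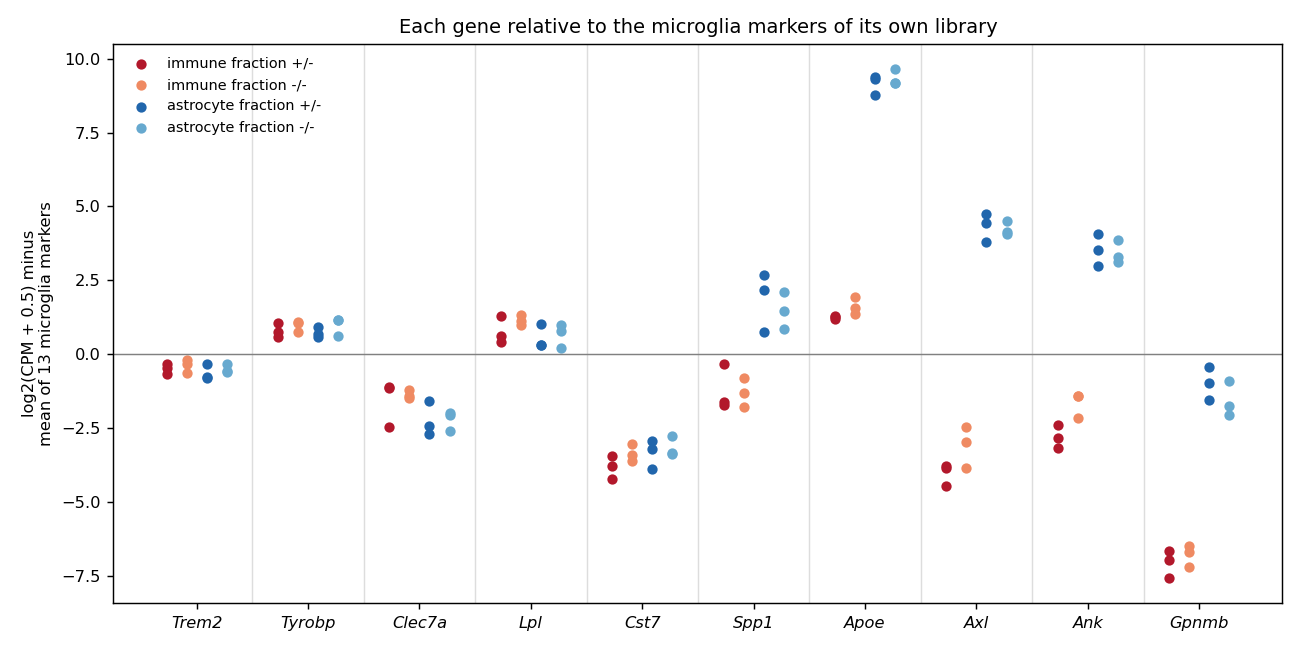
Level of each gene relative to its library's microglia markers (vertical axis, log2(CPM + 0.5) of the gene minus the mean over 13 markers); points are the 12 libraries, coloured by fraction and genotype. Points of both fractions coincide for Trem2, Tyrobp and Cst7, and the astrocyte libraries are higher for Spp1, Apoe, Axl, Ank and Gpnmb.

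Compared per kilobase of the principal transcript, Tyrobp had the highest level in the heterozygous immune fraction, at 1177 ± 305 CPM per kb. It was followed by Apoe at 640 ± 103, Trem2 at 246 ± 28.8, Clec7a at 204 ± 111, Lpl at 164 ± 70.2 and Spp1 at 121 ± 82.1 CPM per kb. Neighbours from Trem2 to Spp1 in that order overlapped between libraries, while Tyrobp, Apoe and the group after them did not. Cst7 at 27.1 ± 9.13, Ank at 15.2 ± 1.79, Axl at 5.37 ± 1.36 and Gpnmb at 0.677 ± 0.353 CPM per kb followed without overlap. The astrocyte fraction had another order, with Apoe at 7163 ± 973, Axl at 83.1 ± 8.20, Ank at 57.9 ± 3.68, Tyrobp at 52.7 ± 14.9 and Spp1 at 44.8 ± 16.4 CPM per kb. Trem2 stood there at 10.1 ± 1.93 CPM per kb, and Ank, Tyrobp and Spp1 overlapped. With all annotated exons as the length, a choice made after the data were seen, Spp1 was the third and Trem2 the sixth in the heterozygous immune fraction.

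The profiles most like those of 3 genes were found among 12030 genes as the smallest root mean square difference of centred log2(CPM + 0.5) over the 12 libraries. Nearest to Trem2 were Sash3 (0.137), Arhgap30 (0.167), Spi1 (0.204), C1qb (0.209) and C1qc (0.216). Nearest to Apoe were Cpq (0.147), Fads1 (0.181), Fgf2 (0.188), Gpt (0.191) and Prodh (0.196). For Spp1 the nearest genes were further away, with Maff at 0.324, Tnfrsf12a at 0.340, Zbtb21 at 0.353, Slc1a5 at 0.355 and Prkcd at 0.357. The 12 points of a profile share the difference between the fractions, so likeness mostly describes that difference.

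The partners of the 10 genes were read in the same comparison of fractions in heterozygotes. Of 17 genes of Trem2 and Tyrobp signalling, 15 were higher and 1 lower in the immune fraction, with a median log2 difference of 4.22 beside 0.041 over all genes tested. Syk, the kinase recruited by Tyrobp, stood at 258 ± 68.9 CPM in immune and at 4.85 ± 1.47 CPM in astrocyte libraries, which is 5.73 ± 0.32 apart in log2 (edgeR adjusted p = 1.23e-08). Plcg2, the phospholipase downstream of it, had a log2 difference of 4.22 ± 0.24, and Inpp5d, the lipid phosphatase that opposes the pathway, of 5.22 ± 0.30. The 1 gene lower in the immune fraction was the exchange factor gene Vav3 (-1.52 ± 0.27), while its relative Vav1 stood at 5.32 ± 0.31. All 10 other receptors of the Trem family or coupled to Tyrobp were higher, among them Trem1, a receptor of neutrophils and monocytes, at 6.19 ± 0.39. Vav3 was singled out after its value was seen.

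Lipid genes were mixed, as Apoe and Lpl were. Of 19 genes of lipid handling, 5 were higher and 9 lower in the immune fraction, with a median of -0.40, beside the 30.3% and 30% of all genes given above. Clu, the other major apolipoprotein of astrocytes, averaged 115.5 CPM in immune and 7007 CPM in astrocyte libraries, -5.92 ± 0.45 in log2. The apolipoprotein E receptor gene Lrp8 was lower as well, at -3.15 ± 0.20. The 5 higher genes were Plin2 (2.34), Lipa (1.70), Abcg1 (1.69), Abca1 (1.22) and Npc2 (1.00), named after their values were seen.

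Of the 4 other genes around Axl, the phagocytic receptor gene Mertk was lower in the immune fraction (-0.89 ± 0.20, edgeR adjusted p = 0.00194). The receptor gene Tyro3 (-0.21 ± 0.29) and the ligand genes Gas6 (0.25 ± 0.27) and Pros1 (0.31 ± 0.18) did not pass. Among 7 integrin and CD44 genes that encode osteopontin receptors, 5 were higher and 1 lower. Itga9 (3.75 ± 0.28) and Itgb3 (3.56 ± 0.27) stood highest, and Itgav was the lower one (-1.66 ± 0.24). Of the 5 phosphate and pyrophosphate genes around Ank, 4 were lower like Ank itself, with Alpl, the phosphatase that hydrolyses pyrophosphate, at -4.82 ± 0.42 and the phosphate transporter gene Slc20a2 at -2.75 ± 0.20. Of the MiT transcription factor genes, which encode regulators of lysosomal genes and of Gpnmb, Tfe3 (1.14 ± 0.15) and Mitf (1.04 ± 0.19) were higher and Tfeb (-0.079 ± 0.19) did not pass; the third to pass was Tfec (4.99).

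All 4 genes of the myeloid C-type lectin list were higher, including Fcer1g, which is not a lectin but the adaptor of several, at 4.39 ± 0.33. Ctsc, the protease that cystatin F restrains, averaged 1313 CPM in immune and 54.9 CPM in astrocyte libraries (4.58 ± 0.36), and 3 of the 5 genes in its list passed as higher. Among further genes of the disease-associated programme, 8 of 8 of the early step were higher in the immune fraction (median 2.08), and 16 were higher and 3 lower among 21 of the later step (median 2.22). Lilrb4, an inhibitory receptor gene, stood at 6.84 ± 0.34, the lysosomal gene Cd68 at 4.70 ± 0.31 and the chemokine gene Ccl3 at 5.77 ± 0.41. The 3 lower ones, named after their values were seen, were Cadm1 (-2.55), Serpine2 (-2.43) and Anxa5 (-1.69).

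**Figure D4:**
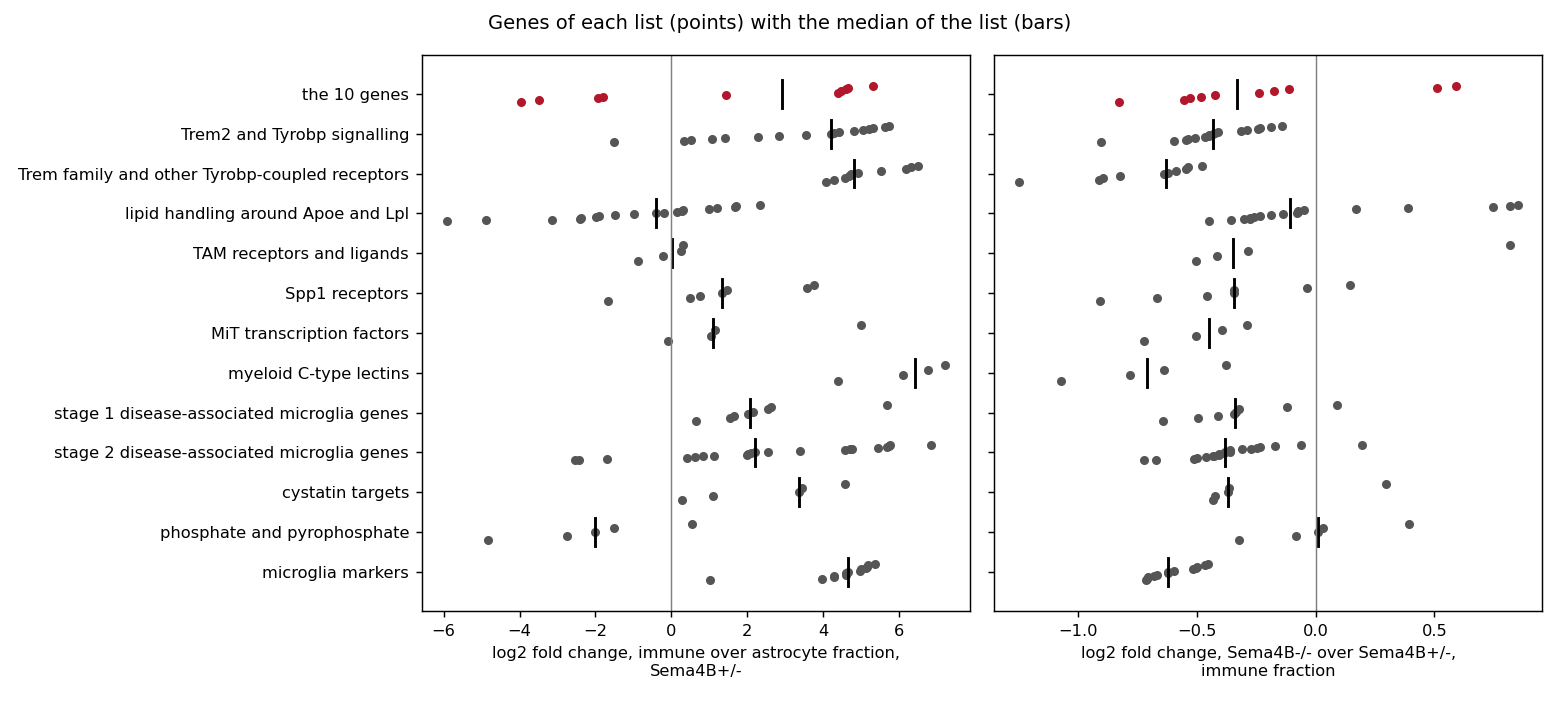
Log2 fold change of immune over astrocyte fraction in Sema4B+/- libraries (left) and of Sema4B-/- over Sema4B+/- in the immune fraction (right) for the 10 genes (red) and the genes of each list (grey); points are genes and bars are list medians. In the left panel the medians run from -2.01 for the phosphate and pyrophosphate list to 6.43 for the C-type lectins, and in the right panel the microglia markers all lie between -0.72 and -0.45.

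The comparison of genotypes in the immune fraction asks whether the programme differs when Sema4b is lost. None of the 10 genes passed (0 of 10 by edgeR, Benjamini-Hochberg adjustment), and neither did any other gene, so 0% of the 15648 genes tested were called. At an unadjusted p under 0.05 stood 2 of the 10, Trem2 and Ank, against 14.6% of all genes. DESeq2 called 399 genes, none of them among the 10, which is 3.24% of the 12301 genes it gave an adjusted p. The fold changes of 8 of the 10 genes were negative, where 50.4% of all genes were, with a median of -0.33 beside -0.0037 over all genes.

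Trem2 was lower in each knockout library than in each heterozygous one, with the values given above. Its mean went from 268 ± 31.3 to 183 ± 26.9 CPM, or by -0.48 ± 0.19 in log2, which did not pass (edgeR adjusted p = 0.285). Tyrobp went from 664 ± 172 to 472 ± 94.2 CPM, and knockout library 9 overlapped the heterozygous range (log2 fold change -0.42 ± 0.24, edgeR adjusted p = 0.434). Non-overlap in the lower direction was found for 11.2% of all genes and in the higher direction for 9.29%, and for 1 of the 10 genes each.

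Ank was that gene in the higher direction. It had 57.8, 55.6 and 46.0 CPM in heterozygous libraries 1, 3 and 5 and 98.9, 60.4 and 69.7 CPM in knockout libraries 7, 9 and 11. The lowest knockout library was close to the highest heterozygous one, and the log2 fold change was 0.59 ± 0.21 (edgeR adjusted p = 0.266). Axl, the other gene with a positive fold change, stood at 0.51 ± 0.40 with overlapping groups (edgeR adjusted p = 0.546).

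Spp1 had the fold change furthest from 0, at -0.83 ± 0.39 (edgeR adjusted p = 0.357), and its groups overlapped. It rested on heterozygous library 1, without which it was -0.19. Clec7a (-0.56 ± 0.40), Gpnmb (-0.53 ± 0.45), Lpl (-0.24 ± 0.32), Apoe (-0.18 ± 0.29) and Cst7 (-0.11 ± 0.29) overlapped between the genotypes too. Intervals of 2 standard errors ran from -1.36 to 0.25 for Clec7a, from -0.76 to 0.40 for Apoe and from -0.70 to 0.48 for Cst7. Changes of either sign within them were compatible with the data. The Spp1 interval, -1.61 to -0.048, left out 0 at an unadjusted edgeR p of 0.0616, so these intervals do not replace the test. The authors' deposited table gave -0.47 for Trem2 (adjusted p = 0.263), -0.81 for Spp1 (adjusted p = 0.340) and 0.60 for Ank (adjusted p = 0.236) as log2 fold changes.

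Marker levels moved beside these genes. All 13 microglia markers had negative fold changes (-0.72 to -0.45), with a summed level of 9706 to 12774 CPM in heterozygous and 5423 to 8374 CPM in knockout immune libraries. Markers of border macrophages (9 of 9), monocytes (6 of 6) and neutrophils (10 of 10 tested) were negative as well. Those of dendritic cells and lymphocytes were mixed, with 3 of 5 tested positive in each list. Markers of neurons (7 of 7), astrocytes (10 of 10), vessels (9 of 9) and oligodendrocytes (6 of 6) were positive. Summed neuron markers were 2050 to 3617 CPM in heterozygous and 3562 to 6135 CPM in knockout libraries, summed astrocyte markers 669 to 767 CPM and 435 to 1334 CPM. Ank, Axl and Apoe are higher in the astrocyte fraction. In knockout immune libraries 7, 9 and 11 the summed astrocyte markers were 1171, 1334 and 435 CPM. In the same libraries Axl had 33.2, 48.2 and 12.4 CPM, Apoe 788, 1027 and 477 CPM, and Ank 98.9, 60.4 and 69.7 CPM. The part of these cell types in the results was not tested.

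With the immune libraries scaled to the 13 microglia markers, the median fold change of all genes shifted by 0.59 and that of Trem2 became 0.10 ± 0.24 (edgeR adjusted p = 0.740). Tyrobp stood at 0.17, Clec7a at 0.091, Gpnmb at 0.12, Lpl at 0.34, Apoe at 0.38 and Cst7 at 0.44, and Spp1 stayed negative at -0.17. Under this scaling 581 of the 15648 genes tested were called, all higher, and none was among the 10. Ank was nearest, at 1.16 ± 0.30 (edgeR adjusted p = 0.0516). Scaling moves the genes of a library together, so the 7 genes that turned positive stayed below the median of all genes, as before it.

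**Figure D5:**
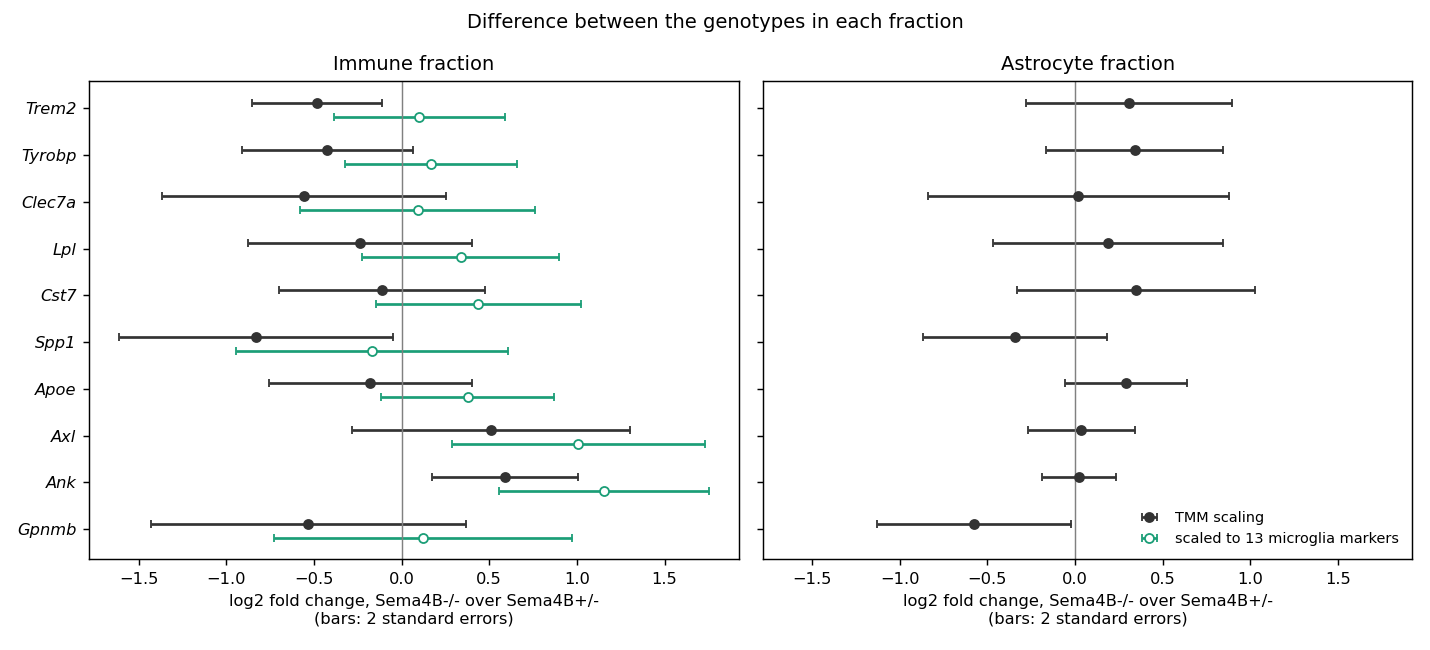
Log2 fold change of Sema4B-/- over Sema4B+/- (horizontal axis) for each gene in the immune (left) and astrocyte fraction (right); points are edgeR estimates, bars extend 2 standard errors to each side, and open green points in the left panel are the estimates with libraries scaled to 13 microglia markers. Trem2 moves from -0.48 to 0.10 between the scalings, and no gene passed the test in either fraction.

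The partner lists showed no call in the immune fraction, and most of their genes had negative fold changes, as Trem2 had. All 17 signalling genes had negative fold changes (median -0.43), as had 10 of 10 receptors of the Trem family or coupled to Tyrobp (-0.63), 7 of 8 genes of the early step (-0.34) and 20 of 21 of the later step (-0.38). Card9, the adaptor downstream of Clec7a, went from 85.3 to 43.5 CPM (-0.91 ± 0.27, edgeR adjusted p = 0.229), and the osteopontin receptor gene Itgb3 from 20.6 to 10.5 CPM (-0.91 ± 0.21, edgeR adjusted p = 0.227). Lipid genes were negative in 13 of 18, and the lipoprotein receptor gene Vldlr was positive, going from 12.8 to 22.2 CPM (0.85 ± 0.25, edgeR adjusted p = 0.227). Tyro3, the relative of Axl that neurons express, went from 57.7 to 97.4 CPM (0.82 ± 0.26, edgeR adjusted p = 0.246). Osteopontin receptors were negative in 6 of 7 and the MiT and C-type lectin lists in 4 of 4 each. Cystatin targets were negative in 4 of 5, TAM genes in 3 of 4 and phosphate genes in 2 of 5.

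In the astrocyte fraction the genotypes were closer. None of the 10 genes passed, and 0% of 15468 genes were called by edgeR, while 593 genes (3.83%) and 0 of the 10 had an unadjusted p under 0.05. DESeq2 called 1 gene, or 0.00483% of the 20702 genes it gave an adjusted p. The fold changes of 8 of the 10 were positive, where 50.7% of all genes were, with a median of 0.11 beside 0.0036 over all genes. Gpnmb, at 6.10 to 12.7 CPM in heterozygotes and 5.52 to 6.05 CPM in knockouts, lay lower in every knockout library without passing, by -0.58 ± 0.28 in log2 (edgeR adjusted p = 0.930); 4.89% of all genes did not overlap in that direction and 6.04% in the other. Markers of fibroblasts (4 of 4), vessels (9 of 9) and oligodendrocyte precursors (4 of 4) had negative fold changes there as well, with none called. Their summed levels were 107 to 135, 1033 to 1949 and 66.6 to 113 CPM in heterozygous and 83.3 to 98.0, 917 to 1436 and 67.6 to 81.6 CPM in knockout libraries, and their part in the Gpnmb value was not tested. Neuron and neutrophil markers were negative in 6 of 7 tested each. Microglia markers were positive in 10 of 12 tested (median 0.16), astrocyte markers in 8 of 10 and oligodendrocyte markers in 5 of 6. The part of the microglia markers in the positive values was not tested.

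Apoe went from 10086 ± 1370 to 12322 ± 2325 CPM in the astrocyte fraction (log2 fold change 0.29 ± 0.17, edgeR adjusted p = 0.930), with overlapping groups. Axl (0.036 ± 0.15) and Ank (0.023 ± 0.11) had the narrowest intervals of the 10, -0.27 to 0.34 and -0.19 to 0.23. Trem2 (0.31 ± 0.29), Tyrobp (0.34 ± 0.25), Cst7 (0.35 ± 0.34), Lpl (0.19 ± 0.33) and Clec7a (0.019 ± 0.43) rested on fewer reads, and Spp1 stood at -0.34 ± 0.26. No gene of the partner lists passed either. The authors' deposited table gave an adjusted p of 1.0 for each of the 10 in this fraction.

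Whether the genotype effect differed between the fractions was tested by an interaction term over all 12 libraries. It was called for 0 of the 10 and 0% of 16880 genes (DESeq2 called 3). An unadjusted edgeR p under 0.05 was found for 2 of the 10, Trem2 and Tyrobp, and for 1753 of all genes, or 10.4%. Trem2 had the largest term of the 10 in size, -0.86 ± 0.36 (edgeR adjusted p = 0.475), followed by Tyrobp at -0.83 ± 0.39 (edgeR adjusted p = 0.481). For these genes the fold change was negative in the immune and positive in the astrocyte fraction, and neither fraction passed alone. The term was negative for 8 of the 10 genes and positive for Axl (0.41 ± 0.50) and Ank (0.51 ± 0.26), where 53.5% of all genes were negative. All 13 microglia markers had a negative term (median -0.83) and all 17 signalling genes did (median -0.55).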

How the data were processed

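RNA of 12 libraries from 2 immunopanned fractions and 2 genotypes was sequenced. The deposited tables give raw counts of reads per gene, beside the authors' log2 fold changes, p-values and adjusted p-values for the 2 genotypes. Per the submitters' processing notes the tools were cutadapt, STAR, HTSeq and DESeq2 on GRCm38, with versions and strand setting not given in the sources used here. Only the counts were tested here. Libraries were identified by their column heads, and none was left out.

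Genes were filtered (minimum count 10, minimum total 15), scaled by TMM and tested with edgeR 4.0.16 in R 4.3.3 (robust quasi-likelihood, two-sided, Benjamini-Hochberg adjustment over all genes tested, threshold 0.05). Fraction differences and the interaction came from a fit of 12 libraries, and genotype differences from a fit of the 6 libraries of a fraction. Levels are TMM-scaled CPM of the former, so that ratios of levels and fitted fold changes differ slightly. Per-kilobase levels use the APPRIS principal transcript of GENCODE M21, in which 20740 of 20776 gene IDs were found, and log2 levels a pseudocount of 0.5. Library totals of 11111965 to 15993564 reads put 3 reads at 0.188 to 0.270 CPM. No 2 libraries of a group were copies of each other (mean chi-square per gene 10.9 to 79.9 over 12 pairs). The edgeR fit was run on simulated counts for the fraction difference in heterozygotes and for both genotype differences. The other fits were not tested in this way.

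Alternatives were RLE and upper-quartile scaling, no or a stricter filter (5 CPM in 3 libraries), limma-voom (limma 3.58.1), DESeq2 1.42.0, other sets of libraries in the fit, scaling to microglia markers, leaving out each library, and a block on consecutive column numbers. The genes and the lists were chosen with earlier results of these data known. Beyond the 10 genes and Sema4b, at most 4 genes per list and comparison are named, the lowest in p among genes averaging 5 CPM or more, and the 5 nearest profiles for Trem2, Apoe and Spp1. One gene that this rule names is not reported here. Genes outside that rule are said to be named after their values were seen. Of the list genes, Lilrb4a was matched as Lilrb4, and Gpihbp1 was not matched.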

Additional observations from a re-analysis of the deposited data

How the results depend on the processing

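The labels pair no libraries. Consecutive column numbers (1 and 2, 3 and 4, and so on) alternate between the fractions, and the correlation of deviations from the group means over 12030 genes was 0.25, 0.39 and 0.28 for these pairs in heterozygotes but 0.13, -0.47 and -0.035 in knockouts, so the numbers were not taken to pair the libraries. As a replicate block, chosen after seeing the data, they changed no call of the 10 genes: the interaction was -0.81 for Trem2 (edgeR adjusted p = 0.540) and 0 genes were called, 9857 genes were called between the fractions in heterozygotes and 9695 in knockouts, and the sign changed for Gpnmb in the interaction (0.026). Of the fraction differences in heterozygotes, 139 values of the 10 genes under other settings kept direction and call, and 1 lost its call: Spp1 without immune library 1 (0.74, edgeR adjusted p = 0.0511). In knockouts 138 did, and Spp1 came to pass by limma-voom (0.88, adjusted p = 0.0395) and in the fit of 6 libraries (0.89, edgeR adjusted p = 0.00535). No gene of the 10 passed in a genotype comparison or in the interaction under any setting in which it was tested. The lowest adjusted p was 0.0516 (Ank, microglia scaling, edgeR). The stricter filter removed Gpnmb in the immune and Cst7 and Clec7a in the astrocyte fraction, so they were not tested there. DESeq2 called 399 genes in the immune fraction (344 higher, 55 lower), 1 in the astrocyte fraction and 3 for the interaction, and microglia scaling 581 in the immune fraction, where edgeR called 0 and limma-voom 0. The sign changed under microglia scaling for Trem2 (0.10), Tyrobp (0.17), Apoe (0.38), Gpnmb (0.12), Lpl (0.34), Cst7 (0.44) and Clec7a (0.091). By limma-voom it changed in the immune fraction for Lpl (0.022) and Cst7 (0.022), in the astrocyte fraction for Clec7a (-0.044) and in the interaction for Gpnmb (0.33). The stricter filter changed it for Axl (-0.0044) and Ank (-0.018) in the astrocyte fraction and for Gpnmb (0.0035) in the interaction, and upper-quartile scaling for Gpnmb (0.049) in the interaction. With 1 library left out, values that changed sign ranged in the immune fraction from -0.43 to 0.11 for Lpl, -0.36 to 0.15 for Cst7 and -0.44 to 0.056 for Apoe. In the astrocyte fraction they ranged from -0.048 to 0.086 for Ank, -0.14 to 0.43 for Lpl, -0.35 to 0.40 for Clec7a and -0.14 to 0.17 for Axl. In the interaction they ranged from -0.38 to 0.37 for Gpnmb, -0.89 to 0.13 for Spp1 and -0.039 to 0.80 for Axl. The causes were not tested. Depth limits Gpnmb in the immune fraction (15 to 43 reads) and Cst7 and Clec7a in the astrocyte fraction (12 to 26 and 20 to 68 reads).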
